A study of Homo sapiens with 8 samples.

Results

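Knockdown of ETV4 in H9 human embryonic stem cells (hESCs) was compared with a control hairpin by poly-A RNA sequencing. ETV4 is an ETS transcription factor of the PEA3 group, H9 is an established line of pluripotent cells, and the comparison used 2 libraries labelled Ctrl and 2 labelled ETV4 KD, which are 4 of the 8 libraries of the series. All 19551 genes of the deposited table for this experiment were considered, and 17879 of them had enough reads to be tested. Both groups were H9 cells kept undifferentiated on Matrigel in a defined stem cell medium, and they differed by the hairpin carried, against ETV4 or control. Which of the study's ETV4 hairpins was sequenced is not given in the sources used here, and the control cells carry a hairpin vector too. The question was which genes change with the ETV4 hairpin in cells that are still pluripotent. No library combined the hairpin with restored ETV4, so effects of the hairpin on other transcripts cannot be told apart from loss of ETV4. The labels do not say whether replicates came from separate cultures, so the p-values measure only the spread between these libraries, which may be technical.

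ETS factors bind DNA at a core GGAA, and those of the PEA3 group (ETV1, ETV4 and ETV5) are activated by ERK, the kinase that carries FGF signals into the nucleus. In primed hESCs, FGF and NODAL/activin signals hold the cells in the pluripotent state, whereas their loss opens the way to neuroectoderm, the part of the ectoderm that forms the nervous system. ATF4 is the transcription factor of the integrated stress response and switches on genes of amino acid supply.

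The libraries held between 52155822 and 56630652 counts on genes. Across genes, log2 CPM (counts scaled to the library total) correlated at 0.993 between the Ctrl libraries, at 0.991 between the ETV4 KD libraries and at 0.977 to 0.985 between groups. A gene listed in the table has at least 1 read in every library, so a gene without reads in some library is not among them. Genes that define pluripotent cells were at high levels: POU5F1 stood at 1020 and 1180 FPKM (a level per transcript length and library size) in Ctrl and at 1290 and 1400 FPKM in ETV4 KD. Of the germ layer genes, TBXT was at or below 0.0854 FPKM and EOMES at or below 0.0273 FPKM in every library. A list of 25 mesendoderm markers, of which 14 were in the table, summed to 33.2 and 32.4 FPKM in Ctrl and to 23.9 and 17.8 FPKM in ETV4 KD, nearly all of it from KDR. In bulk RNA, fewer cells of a type and less RNA per cell cannot be told apart.

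ETV4 itself, on chromosome 17 of GRCh37 from 41605212 to 41656988, stood at 90.8 and 95.1 FPKM in Ctrl and at 45.6 and 40.9 FPKM in ETV4 KD. The groups did not overlap, and ETV4 fell 2.23-fold (log2 fold change, log2FC, -1.15 ± 0.07 (SE, n = 2), adjP = 0.00016 by edgeR's quasi-likelihood test). The knockdown was therefore partial. Genes with an adjP below 0.05 and an absolute log2FC over 0.5 are called DEGs: 2321 genes, or 13.0% of those tested, were DEGs, of which 1052 (5.88%) were upregulated and 1269 (7.10%) were downregulated. Without Ctrl replicate 1 the count was 1587, and without ETV4 KD replicate 1 it was 3390. In 2316 of the 2321 DEGs (99.8%) the FPKM of the groups did not overlap, as against 63.3% of all genes tested. Of the 2321 DEGs, 465 upregulated and 611 downregulated genes were DEGs in each of the 4 fits that left out 1 library in turn. The DEGs named below belong to these, unless a lost call is given. Most changes were small: 324 genes rose and 437 fell by more than 2-fold, and 62 rose and 48 fell by more than 4-fold.

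**Figure D1:**
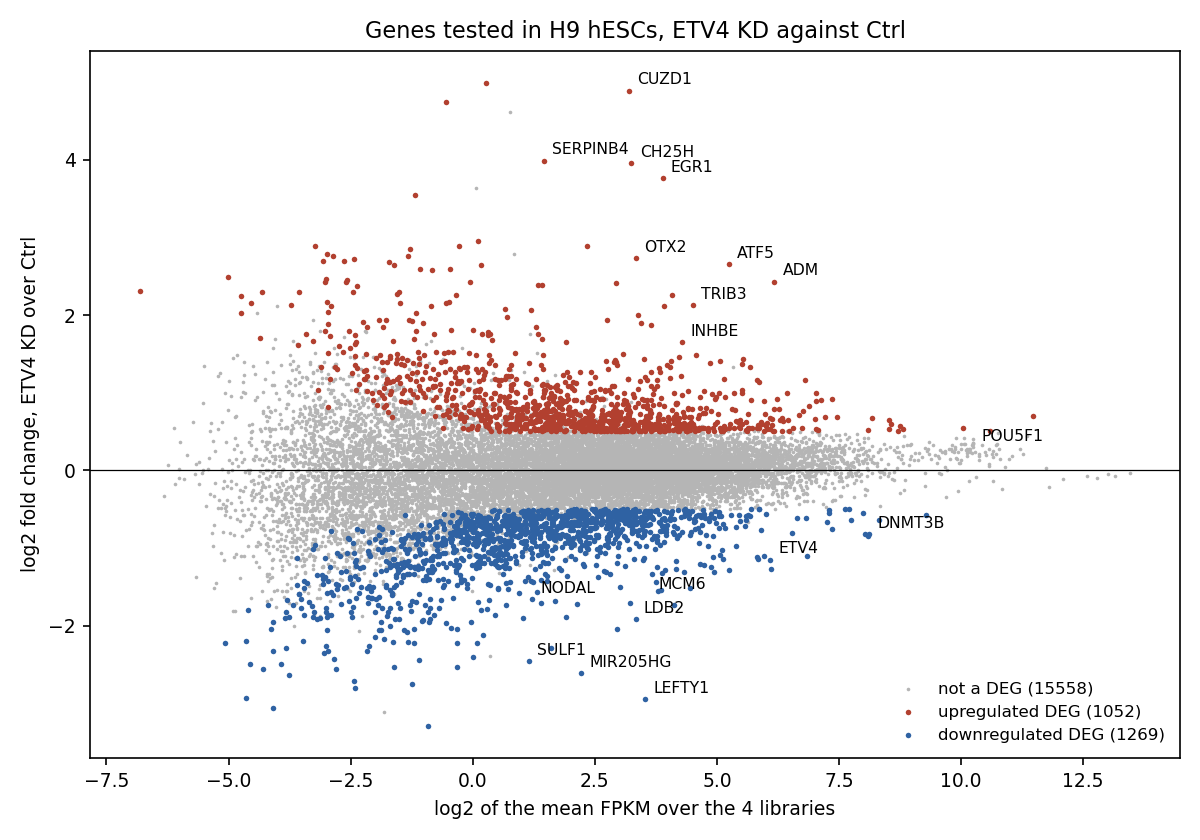
Each point is 1 of the 17879 genes tested, with the log2 of its mean FPKM over the 4 libraries on the x axis and the log2 fold change of ETV4 KD over Ctrl on the y axis; red points are the 1052 upregulated DEGs, blue points the 1269 downregulated DEGs and grey points the rest. The labelled rises reach from INHBE (1.65) to CUZD1 (4.89), LEFTY1 (-2.95) is the lowest labelled fall, and POU5F1 lies near 0 at the right.

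The genes with large changes had different functions, and the largest rises included the neighbours SERPINB3 and SERPINB4, described with the other serpins. CUZD1, a zona pellucida domain protein, went from 0.309 and 0.944 FPKM in Ctrl to 14.3 and 21.1 FPKM in ETV4 KD. CH25H, which makes 25-hydroxycholesterol, went from 1.19 and 1.11 FPKM to 15.8 and 19.9 FPKM (log2FC 3.96 ± 0.17, adjP = 6.63e-05). ADM, the vasodilator peptide adrenomedullin, went from 20.8 and 24.7 FPKM to 100 and 142 FPKM (log2FC 2.43 ± 0.17, adjP = 0.000234). In all 3 genes both ETV4 KD libraries lay far above both Ctrl libraries. On the other side, COQ2, an enzyme of coenzyme Q synthesis, went from 13.1 and 11.8 FPKM to 3.00 and 3.09 FPKM (log2FC -2.04 ± 0.12, adjP = 0.00016). LDB2, an adaptor of LIM domain transcription factors, went from 16.4 and 15.6 FPKM to 4.73 and 3.67 FPKM (log2FC -1.92 ± 0.12, adjP = 0.00016). MIR205HG, a long noncoding host of a microRNA, went from 8.28 and 7.70 FPKM to 1.76 and 0.852 FPKM. The replicates of COQ2 were close to each other in both groups, whereas MIR205HG was lower in ETV4 KD replicate 2.

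More ETS factors fell than rose. Of 23 ETS genes tested, ETV4 included, 7 were downregulated and 1 was upregulated, with a median log2FC of -0.15 against 0.00 over all genes tested. Outside the PEA3 group the counts were 5 and 1 of 20. Within the PEA3 group, ETV1 was also lower (13.5 and 13.3 FPKM against 8.77 and 6.99 FPKM, log2FC -0.77 ± 0.10, adjP = 0.0025). ETV5 overlapped between the groups, at 12.8 and 10.7 FPKM in Ctrl and 12.3 and 10.2 FPKM in ETV4 KD. ETS1 stood at 12 and 12.5 FPKM in Ctrl and at 7.67 and 6.64 FPKM in ETV4 KD (log2FC -0.77 ± 0.09, adjP = 0.00149), and ELF2, named after its values were seen, had a log2FC of -0.62. The broadly expressed ETS factors GABPA (log2FC 0.05, adjP = 0.694) and ELK1 (-0.06, adjP = 0.677) were not called. The count of downregulated ETS genes was 5 to 9 when 1 library was left out.

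In the FGF pathway, some feedback inhibitors and some genes of the FGF family were called, and none of the 5 tested receptors was. None of the receptors was called by DESeq2 either, and 2 had an unadjusted p below 0.05. FGFR1, which had the highest FPKM of FGFR1 to FGFR4, stood at 66.2 and 65.8 FPKM in Ctrl and at 68.3 and 62.4 FPKM in ETV4 KD, so its groups overlapped. Of 11 FGF genes listed as ligands, 3 were downregulated and 1, FGF11 (log2FC 0.65), was upregulated. FGF11, FGF12 and FGF13, which are among those called, are intracellular members of the family and not secreted ligands. FGF2, the ligand that sustains hESCs, was higher in both ETV4 KD libraries (36.4 and 36.0 FPKM against 27.1 and 25.8 FPKM), but its log2FC of 0.46 was below the threshold of a DEG (adjP = 0.00475). FGF12, an intracellular member of the family that acts on sodium channels, went from 2.25 and 2.26 FPKM to 1.37 and 1.30 FPKM, and FGF13, of the same kind, had a log2FC of -0.68. The 13 feedback inhibitors, which dampen ERK, split into 3 downregulated, 2 upregulated and 8 uncalled genes. SPRY4, which blocks signalling below the receptor, went from 78.4 and 72.6 FPKM to 51.1 and 37.5 FPKM (log2FC -0.77 ± 0.12, adjP = 0.00494). DUSP6, the phosphatase that acts on ERK, had a log2FC of -0.97, whereas SPRED3, a relative of the Sprouty proteins, rose by 1.20 on the log2 scale from below 0.5 FPKM. DUSP4, a nuclear phosphatase, was higher at 2.92 and 3.46 FPKM than at 1.90 and 2.13 FPKM, and its call was lost without ETV4 KD replicate 2. The whole list of 29 genes had a median log2FC of -0.14.

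Immediate-early genes, which cells switch on within minutes of a growth factor or a stress, included more rises than falls. Of 29 tested, 9 were upregulated and 1 was downregulated (34.5% against 13.0% of all genes), and the median log2FC was 0.33. EGR1, a zinc finger factor induced by ERK, stood at 2.01 and 2.08 FPKM in Ctrl and at 31.9 and 23.3 FPKM in ETV4 KD. Both ETV4 KD libraries were more than 10 FPKM above every Ctrl library, and EGR1 rose 13.5-fold (log2FC 3.76 ± 0.14, adjP = 4.65e-05). EGR3, named after its values were seen, rose by 2.47 on the log2 scale but stayed at or below 0.221 FPKM. Among the AP-1 subunits, FOS went from 1.70 and 1.93 FPKM to 5.06 and 6.32 FPKM, and FOSL1 from 4.10 and 4.17 FPKM to 9.41 and 12.1 FPKM. JUN, the partner of FOS, moved the other way, from 7.07 and 6.38 FPKM to 3.18 and 4.67 FPKM (log2FC -0.77 ± 0.18, adjP = 0.0222), and its call was lost without ETV4 KD replicate 1. The count of upregulated members was 7 to 12 over the fits with 1 library left out.

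NODAL signalling, which runs through SMAD2 and SMAD3 and maintains NANOG, changed at most of its ligands and antagonists. Of 23 genes tested, 8 were downregulated and 4 upregulated, so 52.2% were DEGs. NODAL, on chromosome 10 from 72191692 to 72207707, stood at 3.40 and 3.68 FPKM in Ctrl and at 0.909 and 1.32 FPKM in ETV4 KD. The groups were well apart, and NODAL fell 3.15-fold (log2FC -1.66 ± 0.22, adjP = 0.0026). Its feedback antagonists LEFTY1 and LEFTY2 fell too: LEFTY1 went from 19.8 and 21.4 FPKM to 2.13 and 3.18 FPKM (log2FC -2.95 ± 0.19, adjP = 0.00016), and LEFTY2 from 5.13 and 6.63 FPKM to 1.45 and 1.75 FPKM. These neighbours on chromosome 1 are close paralogs, and how reads that match both were counted is not stated. TDGF1, the NODAL co-receptor, was one of the most abundant members, at 333 and 340 FPKM in Ctrl and at 195 and 184 FPKM in ETV4 KD (log2FC -0.82 ± 0.07, adjP = 0.000386). GDF3, a ligand of the same branch, had a log2FC of -0.83.

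Activin subunits and an antagonist of activin moved the other way. INHBE, a subunit of the activin family, went from 9.16 and 9.75 FPKM to 25.1 and 34.0 FPKM (log2FC 1.65 ± 0.15, adjP = 0.000714). INHBA, the activin A subunit and named after its values were seen, rose by 2.85 on the log2 scale from 0.102 and 0.0990 FPKM to 0.648 and 0.802 FPKM. FST, the secreted antagonist of activin, went from 2.84 and 2.75 FPKM to 4.73 and 5.13 FPKM. Of 5 receptors and co-receptors, 2 were downregulated, TDGF1 and ACVR1C, a receptor for NODAL that was named after its values were seen (0.42 and 0.337 FPKM against 0.212 and 0.183 FPKM, log2FC -0.90 ± 0.21, adjP = 0.0207), and the call of ACVR1C was lost without Ctrl replicate 1. The receptors ACVR1B (log2FC 0.12, adjP = 0.367) and ACVR2B (-0.08, adjP = 0.529) and the effectors SMAD2 (0.13, adjP = 0.294) and SMAD3 (-0.36, adjP = 0.114) were not called. Of the corepressors, TGIF2 was lower (log2FC -0.76) and TGIF1 higher (82.5 and 91.8 FPKM against 127 and 128 FPKM), and the call of TGIF1 was lost without Ctrl replicate 1. In the separate list of 17 TGF-beta genes, 4 were downregulated and 1 was upregulated. TGFBI, a secreted matrix protein induced by TGF-beta, fell from 4.05 and 4.56 FPKM to 2.31 and 1.99 FPKM.

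**Figure D2:**
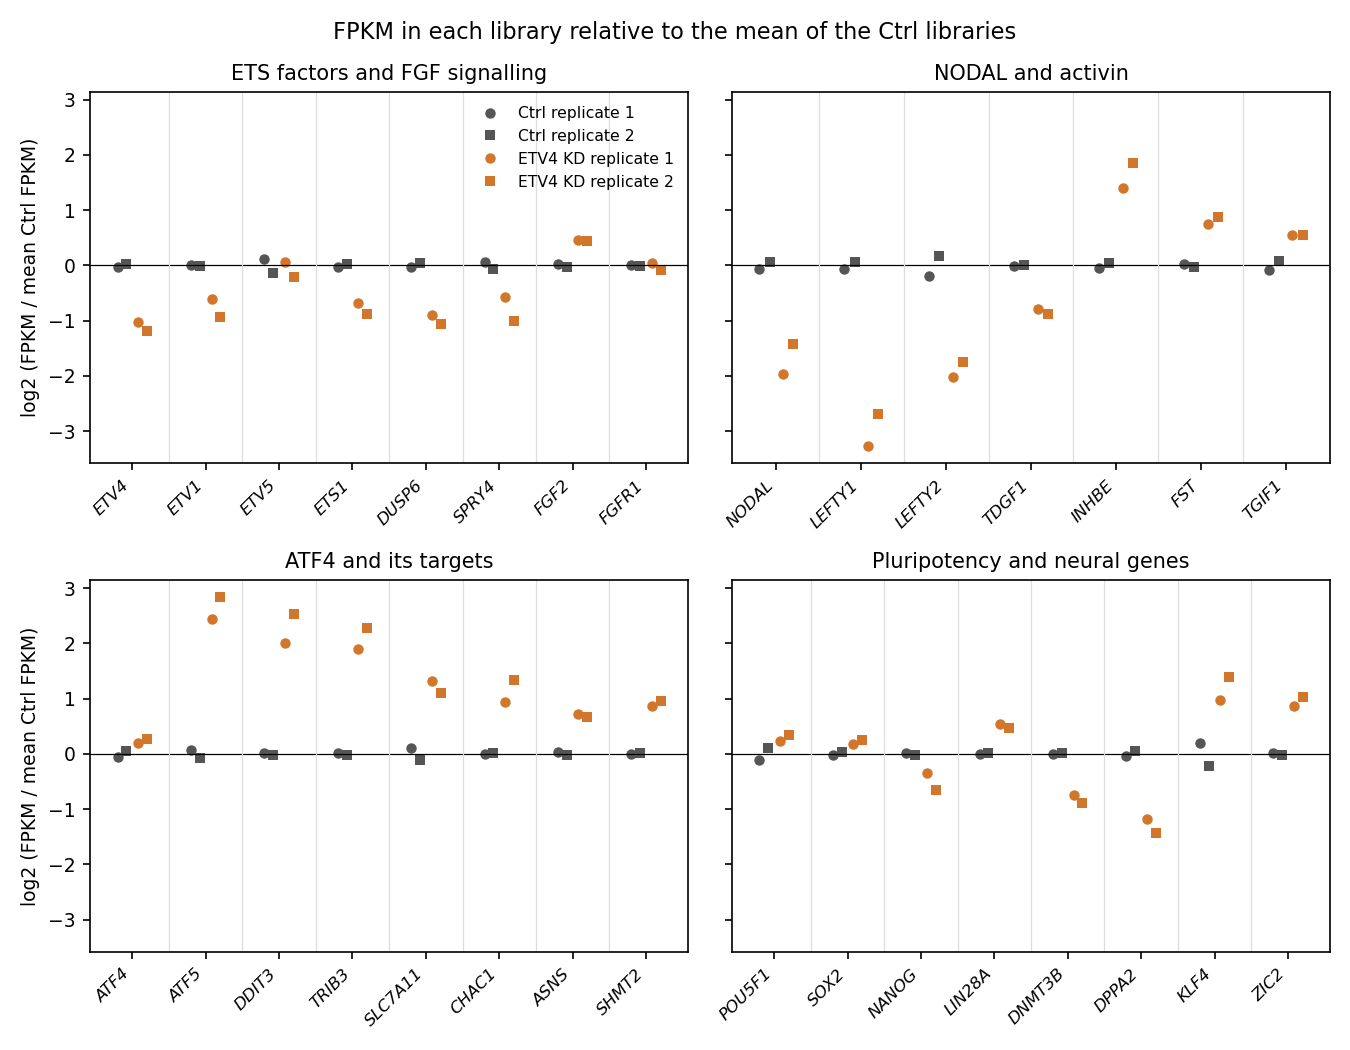
For each gene on the x axis, points show the log2 of its FPKM in a library over the mean FPKM of the 2 Ctrl libraries; grey points are the Ctrl libraries, orange points the ETV4 KD libraries, circles replicate 1 and squares replicate 2. The ETV4 KD points of ETV5, FGFR1 and ATF4 lie within or close to the Ctrl points, those of LEFTY1 lie lowest, and those of ATF5, DDIT3 and TRIB3 lie highest.

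Other patterning pathways had lower shares of DEGs than NODAL signalling. The shares were 15.2% for BMP, 22.7% for Notch and 11.8% for retinoic acid genes, against 13.0% of all genes. Of 49 WNT genes, 2 were upregulated and 1 downregulated, which at 6.12% was below the share over all genes. FZD5, a WNT receptor, went from 11.8 and 11.7 FPKM to 7.27 and 7.26 FPKM, and AXIN2, a WNT target and feedback inhibitor, from 5.09 and 5.07 FPKM to 7.95 and 7.86 FPKM. Without ETV4 KD replicate 1, 8 WNT genes were downregulated and 4 upregulated. Of 33 BMP genes, 3 were upregulated and 2 downregulated, against 2 and 0 without Ctrl replicate 1, 2 and 2 without Ctrl replicate 2, 5 and 3 without ETV4 KD replicate 1 and 1 and 1 without ETV4 KD replicate 2, and 1 rise and 0 falls held in each of these fits. None of the 9 ligands tested was called by edgeR or DESeq2 (1 had an unadjusted p below 0.05). Of 22 Notch genes, 3 were downregulated and 2 upregulated, and without Ctrl replicate 1 there were 1 and 0. DLL3, a Notch ligand that acts within the cell, kept its call in each fit (log2FC -1.36). CRABP2, which carries retinoic acid to the nucleus, went from 23.3 and 25.6 FPKM to 48.8 and 45.5 FPKM (log2FC 0.94 ± 0.09, adjP = 0.000733), 1 of 2 DEGs among 17 retinoic acid genes.

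Among pluripotency factors, POU5F1 (log2FC 0.30, adjP = 0.0505), SOX2 (0.22, adjP = 0.0688) and NANOG (-0.44, adjP = 0.0165) were not DEGs, although the libraries of the groups did not overlap in any of them. Of 20 factors, 4 were downregulated and 1 was upregulated. LIN28A, the RNA-binding blocker of let-7, went from 344 and 349 FPKM to 504 and 480 FPKM. DNMT3B, the de novo DNA methyltransferase of primed cells, went from 354 and 359 FPKM to 212 and 192 FPKM (log2FC -0.82 ± 0.07, adjP = 0.000464). The other methyltransferases did not move with it: DNMT1 had a log2FC of 0.09 (adjP = 0.392) and DNMT3A of 0.17 (adjP = 0.123). DPPA2, a chromatin factor that marks developmental promoters, went from 9.16 and 9.76 FPKM to 4.15 and 3.48 FPKM.

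Genes linked to naive pluripotency, the state before implantation, included more falls than rises. Of 14 tested, 5 were downregulated and 1 upregulated, with a median log2FC of -0.55. TFCP2L1, a transcription factor, went from 2.17 and 1.82 FPKM to 1.18 and 0.751 FPKM, DPPA5 from 2.49 and 2.46 FPKM to 0.900 and 0.565 FPKM, and SUSD2, a surface marker, from 2.06 and 2.11 FPKM to 1.22 and 0.883 FPKM. KLF4 was the exception, at 1.15 and 0.864 FPKM in Ctrl and 1.98 and 2.65 FPKM in ETV4 KD (log2FC 1.21 ± 0.23, adjP = 0.00977). The medians stayed between -0.78 and -0.41 with 1 library left out.

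Of 16 anterior neural factors tested, 6 were upregulated and 1 was downregulated (43.8%), with a median log2FC of 0.32. With 1 library left out, 5 or 6 were upregulated, but the median ranged from 0.07 (without ETV4 KD replicate 2) to 0.49 (without ETV4 KD replicate 1). Beside OTX2, which rose by 2.73 on the log2 scale, the zinc finger factors of the neural plate ZIC2 (17.5 and 17.1 FPKM against 31.4 and 35.1 FPKM, log2FC 0.95 ± 0.09, adjP = 0.000873) and ZIC5 (log2FC 0.83) were upregulated. SOX21 went from 0.735 and 0.589 FPKM to 1.54 and 2.18 FPKM, and FEZF1, a forebrain factor named after its values were seen, from 0.145 and 0.242 FPKM to 0.962 and 1.94 FPKM. POU3F1, a POU factor of epiblast and neural progenitors, was lower (8 and 8.52 FPKM against 5.84 and 5.28 FPKM, log2FC -0.57). SIX3 (log2FC 0.27, adjP = 0.705) stayed at or below 0.165 FPKM in every library. Of 15 SOX genes tested, 4 were upregulated and 0 downregulated by edgeR (3 and 0 by DESeq2, and 6 and 1 at an unadjusted p below 0.05), among them SOX15 (6.49 and 7.21 FPKM against 11.5 and 16.7 FPKM).

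Neuronal genes split by role. Among 21 cytoskeletal genes, 4 were upregulated and 1 was downregulated, whereas among 25 synapse genes 11 were downregulated and 2 upregulated, with a median log2FC of -0.50. NPTX2, a secreted pentraxin that clusters glutamate receptors, went from 8.87 and 9 FPKM to 5.64 and 4.54 FPKM (log2FC -0.81 ± 0.12, adjP = 0.00348), and its receptor NPTXR from 2.85 and 2.57 FPKM to 1.57 and 1.32 FPKM. SYT1, a calcium sensor of vesicle release, went from 8.57 and 8.48 FPKM to 5.24 and 5.11 FPKM. The adhesion genes NRXN2 (log2FC -0.95) and NLGN1 (-0.80), named after their values were seen, were lower as well. Of the 2 synapse genes that rose, SYN1 went from 1.94 and 1.75 FPKM to 3.05 and 3.02 FPKM, and its call was lost without Ctrl replicate 2. None of the 5 proneural factors tested was called by edgeR or DESeq2, and 0 had an unadjusted p below 0.05. Over all 51 neuronal genes the counts were 6 up and 12 down, against 4 and 7 without Ctrl replicate 1 and 3 and 11 without Ctrl replicate 2.

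**Figure D3:**
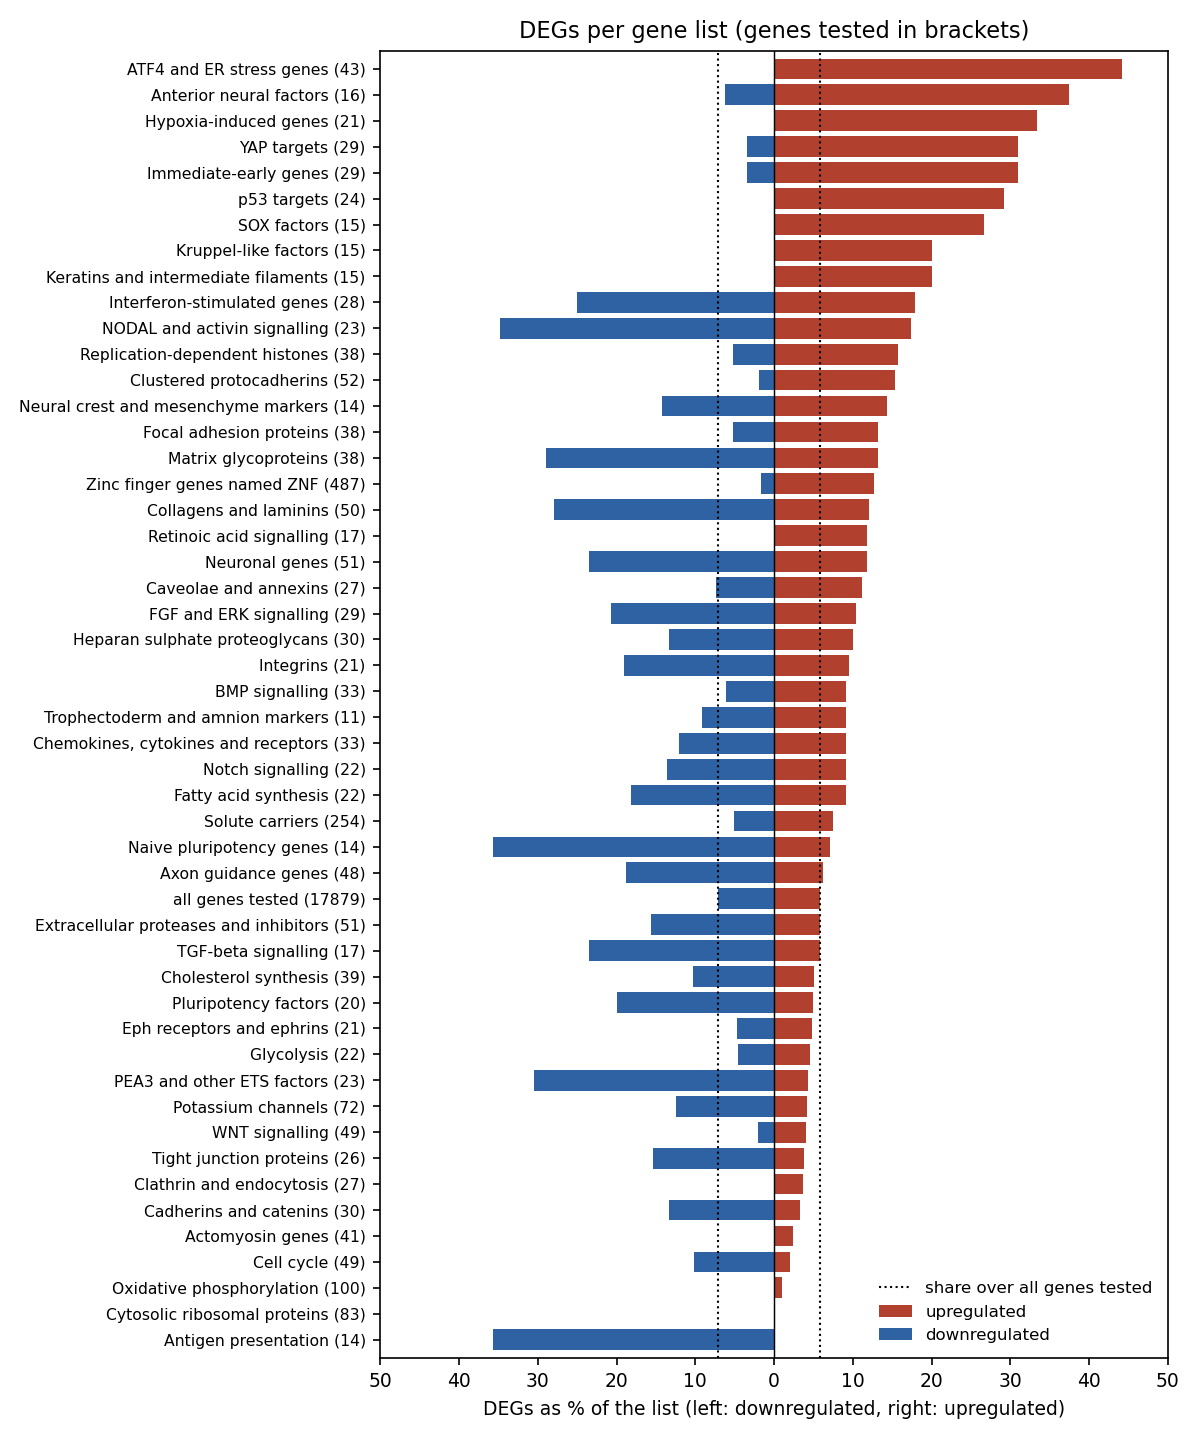
Bars give, for each gene list with at least 10 genes tested (number in brackets), the percentage of its genes that were upregulated DEGs (red, to the right) and downregulated DEGs (blue, to the left); dotted lines mark the shares over all genes tested, 5.88% and 7.10%. ATF4 and ER stress genes have the longest bar to the right, while naive pluripotency and antigen presentation genes have the longest bars to the left.

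Targets of ATF4 were higher nearly throughout. Of 25 targets tested, 17 were upregulated and 0 downregulated, by edgeR and by DESeq2, and the median log2FC was 0.69. An unadjusted p below 0.05 was met by 21 targets above 0 and by 1 below 0. ATF5, a stress-induced transcription factor on chromosome 19, went from 11 and 9.87 FPKM to 56.6 and 74.4 FPKM (log2FC 2.66 ± 0.15, adjP = 0.00016). DDIT3, which encodes the proapoptotic factor CHOP, went from 5.82 and 5.67 FPKM to 23.1 and 33.0 FPKM, and TRIB3, a pseudokinase that feeds back on ATF4, from 8.76 and 8.55 FPKM to 32.1 and 41.8 FPKM. In these 3 genes every ETV4 KD library was more than 3 times the highest Ctrl library. SLC7A11, the cystine transporter, went from 12.3 and 10.7 FPKM to 28.6 and 24.8 FPKM (log2FC 1.22 ± 0.09, adjP = 0.000316).

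The remaining ATF4 targets, named after their values were seen, cover amino acid supply. ASNS, asparagine synthetase, went from 79.1 and 76.3 FPKM to 128 and 124 FPKM (log2FC 0.71 ± 0.07, adjP = 0.000873). Serine and one-carbon enzymes rose in the same range, with a log2FC of 0.67 for PSAT1, 0.92 for SHMT2 and 0.65 for MTHFD2. The paired amino acid exchangers SLC7A5 (log2FC 0.89) and SLC3A2 (0.69) rose too, as did CHAC1, which degrades glutathione (21.9 and 22.2 FPKM against 42.0 and 55.8 FPKM). ATF4 transcript itself was at 288 and 311 FPKM in Ctrl and at 345 and 362 FPKM in ETV4 KD (log2FC 0.26, adjP = 0.0517). ER chaperones, the other arm of the list, were mostly uncalled: 2 of 18 were upregulated, the median log2FC was 0.02, HSPA5 had a log2FC of 0.23 (adjP = 0.0839) and HSP90B1 of -0.32 (adjP = 0.0136). Of the 19 DEGs of the whole list, 15 kept their call in each fit with 1 library left out.

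Other stress responses were read from lists of hypoxia and p53 genes. Of 21 hypoxia-induced genes, 7 were upregulated and 0 downregulated (6 and 0 by DESeq2, and 9 and 4 at an unadjusted p below 0.05), and the upregulated count was 4 without Ctrl replicate 2 or without ETV4 KD replicate 2. VEGFA (13.3 and 12.2 FPKM against 21.1 and 21.2 FPKM) and DDIT4, an inhibitor of mTORC1 (25.3 and 25.8 FPKM against 58.7 and 72.4 FPKM), rose with ADM. CA9, a classical target of hypoxia-inducible factor, was at or below 0.5 FPKM in every library, and PDK1 (log2FC -0.45, adjP = 0.0652) and SLC2A1 (0.03, adjP = 0.839) were not called. Of 24 p53 targets, 7 were upregulated and 0 downregulated by edgeR and DESeq2 (14 and 3 at an unadjusted p below 0.05). FAS, a death receptor, went from 1.11 and 1.11 FPKM to 2.21 and 2.42 FPKM, GDF15, a stress cytokine, from 11.8 and 8.05 FPKM to 19.5 and 18.3 FPKM, and TNFRSF10B, a TRAIL receptor named after its values were seen, from 29.4 and 29.0 FPKM to 51.6 and 49.1 FPKM. CDKN1A, the cell cycle inhibitor p21, overlapped between the groups at 28.6 and 23.4 FPKM against 27.3 and 22.5 FPKM. Several of these genes, DDIT4 and TNFRSF10B among them, are also known to respond to ATF4 or CHOP, and the lists do not separate the pathways.

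**Figure D4:**
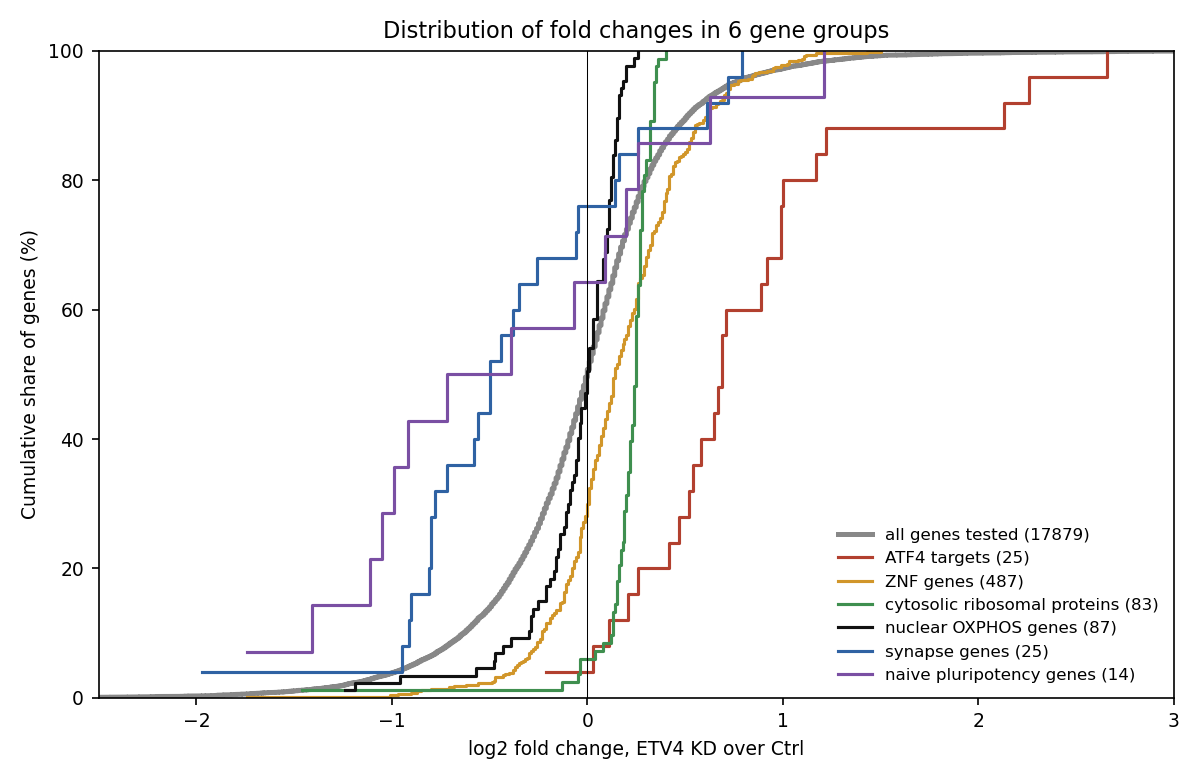
Curves give the cumulative percentage of genes (y axis) at or below a log2 fold change of ETV4 KD over Ctrl (x axis, cropped at -2.5 and 3) for all 17879 genes tested (grey) and for 6 groups, whose numbers of genes are in brackets. The curve of the ATF4 targets lies to the right, with a median of 0.69, the curves of synapse and naive pluripotency genes lie to the left at -0.50 and -0.55, and the ribosomal protein curve is steep around 0.25.

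Genes of the extracellular matrix were lower more often than higher. Collagens and laminins gave 14 downregulated and 6 upregulated genes of 50, and other matrix glycoproteins 11 and 5 of 38. Not every collagen followed the fall: COL7A1, which anchors epithelia, went from 3.29 and 3.37 FPKM to 6.69 and 7.76 FPKM (log2FC 1.12 ± 0.11, adjP = 0.000733), and COL1A1, the main fibrillar collagen, had a log2FC of 1.00. COL23A1, a transmembrane collagen, was among those that fell (7.64 and 7.43 FPKM against 4.81 and 3.47 FPKM). Of the glycoproteins, TNC, a matrix protein that modulates adhesion, went from 1.83 and 1.71 FPKM to 0.835 and 0.905 FPKM, while SPP1, osteopontin, went from 20.3 and 19.6 FPKM to 30.8 and 38.6 FPKM. Without ETV4 KD replicate 2, the counts were 10 down and 3 up for collagens and laminins and 8 and 2 for the glycoproteins. Without Ctrl replicate 2, the glycoproteins gave 7 down and 3 up.

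Of 30 genes of heparan sulphate, the sugar chain on which FGFs meet their receptors, 23.3% were DEGs, against 13.0% of all genes tested. Some of the changes were large. SULF1, which removes sulphate groups from these chains, went from 4.01 and 3.50 FPKM to 0.894 and 0.489 FPKM (log2FC -2.46 ± 0.23, adjP = 0.000714). Of the core proteins that carry the chains, the syndecan SDC3 went from 13.4 and 13.6 FPKM to 6.81 and 5.44 FPKM (log2FC -1.14 ± 0.10, adjP = 0.000624), whereas the glypican GPC4 went from 76.0 and 85.2 FPKM to 127 and 145 FPKM (log2FC 0.76 ± 0.10, adjP = 0.00237). EXT2, a polymerase of the chains, was called lower on counts (log2FC -0.54), but its FPKM overlapped between the groups, at 9.78 and 10 against 7.22 and 9.79. In all, 4 of 30 genes were downregulated and 3 upregulated.

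Extracellular proteases gave 8 downregulated and 3 upregulated genes of 51, and without Ctrl replicate 2 the downregulated count was 5. Most of these were metalloproteases of the ADAM and ADAMTS families: ADAM19 went from 3.51 and 3.51 FPKM to 1.76 and 1.74 FPKM, and ADAMTS14, which trims procollagen, from 1.87 and 2.17 FPKM to 1.08 and 0.960 FPKM. ADAM9, a sheddase of growth factors, moved the other way, from 7.26 and 6.67 FPKM to 16.4 and 15.5 FPKM (log2FC 1.20 ± 0.09, adjP = 0.000254). The clade B serpins, intracellular protease inhibitors, gave 4 upregulated and 0 downregulated genes of 6 (1 below 0 at an unadjusted p below 0.05, and 0 by DESeq2), and 4 rose in each fit with 1 library left out. SERPINB9, the granzyme B inhibitor, went from 8.84 and 8.88 FPKM to 19 and 26.3 FPKM, and SERPINB4 from 0.271 and 0.373 FPKM to 4.49 and 5.85 FPKM. SERPINB3 is a near-identical neighbour of SERPINB4, so its rise from 0.0394 and 0.1 FPKM to 1.66 and 2.99 FPKM may hold reads of the same transcripts.

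Of 21 integrins, receptors that bind the matrix, 4 were downregulated and 2 upregulated, and the median log2FC was -0.28, with 2 down and 1 up without Ctrl replicate 1 and 4 and 0 without ETV4 KD replicate 2. ITGB1, the common beta chain of hESC integrins, was at 127 and 123 FPKM in Ctrl and at 106 and 83.5 FPKM in ETV4 KD (log2FC -0.40, adjP = 0.0235), below the fold of a DEG. ITGA2, a collagen-binding chain, went from 1.63 and 1.48 FPKM to 0.930 and 0.601 FPKM. Neither E-cadherin (CDH1, log2FC -0.32, adjP = 0.0259) nor N-cadherin (CDH2, 0.27, adjP = 0.0452) was a DEG. Of 38 focal adhesion genes, 5 were upregulated and 2 downregulated, a share of 18.4% against 13.0% of all genes. Among them were FLNC, an actin crosslinker (6.79 and 5.63 FPKM against 13.7 and 19.7 FPKM), and PDLIM5, a scaffold of stress fibres (11.2 and 10.3 FPKM against 5.37 and 3.99 FPKM). Without ETV4 KD replicate 2, 2 focal adhesion genes were upregulated.

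Targets of YAP, the coactivator that responds to tension, gave 9 upregulated and 1 downregulated gene of 29, with a median log2FC of 0.23 and with 6 upregulated without ETV4 KD replicate 2. AXL, a receptor kinase, went from 6.79 and 6.52 FPKM to 14.9 and 14.7 FPKM (log2FC 1.15 ± 0.08, adjP = 0.000234), and AJUBA, a LIM protein that restrains the Hippo kinases, from 8.14 and 8.24 FPKM to 14.4 and 19.2 FPKM. Of the usual readouts, CCN2 went from 41.2 and 40.5 FPKM to 53.8 and 63.9 FPKM, with its call lost without ETV4 KD replicate 2, and CCN1 was not called (log2FC 0.36, adjP = 0.118). Of 41 actomyosin genes, 1 was a DEG, the smooth muscle actin ACTA2, at 0.459 and 0.667 FPKM in Ctrl and 1.51 and 1.52 FPKM in ETV4 KD, and its gene overlaps FAS. Without ETV4 KD replicate 1, 9 actomyosin genes were upregulated. ANXA1, a membrane-binding annexin, went from 5.65 and 5.25 FPKM to 14.1 and 25.5 FPKM (log2FC 1.87 ± 0.27, adjP = 0.00463), with ETV4 KD replicate 2 well above replicate 1. LMNA, the lamin of stiff nuclei, went from 17.1 and 13.9 FPKM to 27.7 and 26.4 FPKM.

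Semaphorins, secreted or membrane-bound guidance cues for axons and vessels, were among the families with the largest share of DEGs. Of 31 semaphorin and plexin genes, 8 were downregulated and 2 upregulated. SEMA6A, by far the most abundant of those named, went from 101 and 94.2 FPKM to 46.2 and 35.0 FPKM (log2FC -1.27 ± 0.11, adjP = 0.000618), and SEMA5B went from 3.63 and 3.90 FPKM to 1.80 and 1.49 FPKM. The other axon guidance genes, netrins, slits, robos and their partners, gave 1 DEG in each direction among 17. Without ETV4 KD replicate 2, the whole list gave 5 downregulated genes in place of 9, and without Ctrl replicate 1 it gave 6. Clustered protocadherins, which give neurons their surface identity, gave 8 upregulated and 1 downregulated gene of 52 (17.3%, against 13.0% of all genes), and 39 lay above 0. Only 2 of the 8 rises held in each fit with 1 library left out, those of PCDHA12 (1.46 and 1.39 FPKM against 2.26 and 2.17 FPKM) and PCDHB15 (2.52 and 2.31 FPKM against 3.94 and 3.90 FPKM). Without Ctrl replicate 2, 3 were upregulated. Genes of the alpha and gamma clusters share their last exons, so their counts are uncertain.

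Genes of oxidative phosphorylation gave 1 DEG and cytosolic ribosomal protein genes gave 0, but the latter were shifted upwards by a small amount. Of 87 nuclear genes of oxidative phosphorylation, 0 were DEGs by edgeR or by DESeq2, 12 were below 0 and 3 above 0 at an unadjusted p below 0.05, and their median log2FC was 0.00. The 1 DEG was ND1 of the mitochondrial genome, where 9 of 13 genes tested lay below 0. ND1 went from 1180 and 1390 FPKM to 1750 and 1880 FPKM (log2FC 0.50 ± 0.09, adjP = 0.00856). The call of ND1 was lost without Ctrl replicate 1 or ETV4 KD replicate 2. The whole oxidative phosphorylation list made up a smaller share of all FPKM in both ETV4 KD libraries than in both Ctrl libraries. Of 83 cytosolic ribosomal protein genes, 0 were DEGs by edgeR or DESeq2, but 64 were above 0 at an unadjusted p below 0.05. In all, 78 of them lay above 0 with a median log2FC of 0.25, and they made up 15.3% and 15.6% of all FPKM in Ctrl and 16.5% and 17.7% in ETV4 KD. The 579 genes above 100 FPKM had a median log2FC of 0.13. In lipid metabolism, 15.4% of the cholesterol genes and 27.3% of the fatty acid genes were DEGs, against 13.0% of all genes. SCD, a desaturase of fatty acids, went from 299 and 303 FPKM to 216 and 193 FPKM, and ACSS2, which makes acetyl-CoA from acetate, from 12 and 12.5 FPKM to 6.41 and 4.01 FPKM. Of 39 cholesterol genes, 4 were downregulated and 2 upregulated, and of 22 fatty acid genes 4 and 2 (2 and 2 without ETV4 KD replicate 2, and 4 and 0 without ETV4 KD replicate 1). In glycolysis, HK1 was lower (121 and 122 FPKM against 86.5 and 72.0 FPKM, log2FC -0.61 ± 0.08, adjP = 0.00293), and TPI1 (374 and 367 FPKM against 506 and 559 FPKM), whose call was lost without ETV4 KD replicate 2, was the other DEG of 22 genes.

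Interferon-stimulated genes moved in both directions, with 7 of 28 downregulated and 5 upregulated and a median log2FC of -0.39. IFITM1, a membrane protein that blocks virus entry and is abundant in stem cells, went from 374 and 400 FPKM to 268 and 229 FPKM (log2FC -0.64 ± 0.08, adjP = 0.00235). IFIT1, a sensor induced by interferon, stayed at or below 0.651 FPKM in every library and was not called (adjP = 0.122). Without Ctrl replicate 1, 4 were downregulated and 2 upregulated, and without ETV4 KD replicate 2, 4 and 3. Of 14 antigen presentation genes, 5 were downregulated and 0 upregulated by edgeR and DESeq2, with 4 above 0 at an unadjusted p below 0.05. TAPBP, the peptide-loading chaperone tapasin, went from 10.5 and 10.4 FPKM to 6.19 and 4.71 FPKM, and ERAP1, which trims peptides, from 4.97 and 4.48 FPKM to 2.67 and 2.06 FPKM. The class I heavy chains HLA-B (log2FC 0.44, adjP = 0.0112) and HLA-C (0.26, adjP = 0.073) were not DEGs. HLA-E, another heavy chain and named after its values were seen, was downregulated. Its log2FC was between -0.77 and -0.50 with 1 library left out.

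Cell cycle genes gave 5 downregulated and 1 upregulated gene of 49, close to the share over all genes. Without Ctrl replicate 1 there were 2 and 0, and without ETV4 KD replicate 2 there were 3 and 1. Of these, 1 changed more than 2-fold, MCM6, a subunit of the replicative helicase, which went from 52.4 and 55.8 FPKM to 22.7 and 21.3 FPKM (log2FC -1.29 ± 0.07, adjP = 0.00016). The other helicase subunits, looked up after this value was seen, did not fall with it: MCM2 had a log2FC of 0.43 (adjP = 0.00921), MCM3 of 0.15 (adjP = 0.168), MCM4 of -0.17 (adjP = 0.122), MCM5 of 0.29 (adjP = 0.0348) and MCM7 of 0.27 (adjP = 0.0473). MKI67, a marker of cycling cells, was lower (26.1 and 21.9 FPKM against 19 and 14.8 FPKM, log2FC -0.52), and its call was lost without Ctrl replicate 1 or ETV4 KD replicate 2. Of 38 histone genes, 6 were upregulated and 2 downregulated, with H2BC12, a histone H2B, at 9.96 and 10.1 FPKM against 21.6 and 24.1 FPKM. Without Ctrl replicate 1 there were 3 and 0, and without ETV4 KD replicate 1 there were 10 and 1. Most histone messages lack a poly-A tail, so a poly-A library sees only a part of them.

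Zinc finger genes named ZNF were shifted upwards by a small amount. Of 487 tested, 62 (against 5.88% of all genes) were upregulated and 8 downregulated, and 346 lay above 0, with a median log2FC of 0.14. Many encode KRAB or related zinc finger repressors, and many sit in clusters on chromosome 19. Among protein-coding ZNF genes, 35 of 224 on chromosome 19 (15.6%) and 24 of 239 elsewhere (10%) were upregulated, whereas of the other protein-coding genes of chromosome 19 5.53% were. The single changes were small: ZNF239 went from 2.77 and 2.91 FPKM to 5.15 and 6.41 FPKM (log2FC 1.12 ± 0.17, adjP = 0.00417) and ZNF222 from 1.25 and 1.53 FPKM to 2.83 and 3.17 FPKM. Without Ctrl replicate 1, 32 ZNF genes were upregulated and without ETV4 KD replicate 1, 20 were downregulated, and 16 of the 62 held in each fit with 1 library left out. Zinc finger genes of a cluster share sequence, so reads between close copies are uncertain.

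By gene symbol, 125 families had at least 15 tested members, and 55 of these had a higher share of DEGs than all genes. At the top were the collagens (COL, 40.0%), semaphorins (SEMA, 38.1%) and synaptotagmins (SYT, 37.5%). Guanine nucleotide exchange factors named ARHGEF gave 6 downregulated and 2 upregulated genes of 26, and ARHGEF2, which is released from microtubules, went from 8.51 and 8.96 FPKM to 16 and 18.4 FPKM. GALNT genes, which start O-linked glycosylation, gave 5 downregulated and 0 upregulated of 17, and CHST sulphotransferases 4 and 0 of 15, led by CHST8 (9.83 and 8.59 FPKM against 4.05 and 3.44 FPKM). TNF receptors (TNFRSF) went the other way, with 4 upregulated and 1 downregulated of 16. TNFRSF12A, the TWEAK receptor, went from 35.7 and 37.4 FPKM to 73.7 and 87.2 FPKM (log2FC 1.14 ± 0.11, adjP = 0.000745), and TNFRSF10D, a decoy TRAIL receptor, from 4.45 and 4.24 FPKM to 11.3 and 10.9 FPKM. In 7 families by edgeR, F-box proteins (FBXO) and 19S proteasome subunits (PSMD) among them, no gene was a DEG. Of 72 potassium channel genes 16.7% were DEGs, near the 13.0% of all genes. Potassium channel genes gave 9 downregulated and 3 upregulated of 72, against 3 downregulated without Ctrl replicate 1 and 5 without ETV4 KD replicate 2.

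Noncoding genes held a group known from pluripotent cells, the miR-302/367 cluster on chromosome 4, looked up after its values were seen. These microRNAs repress cell cycle inhibitors and differentiation genes. Their mature 3p sequences, from RefSeq, are shown because 4 of them share 1 seed and so 1 set of possible target sites; capitals mark the seed, bases 2 to 8.
hsa-miR-302a-3p: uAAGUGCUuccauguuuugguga
hsa-miR-302b-3p: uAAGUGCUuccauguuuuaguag
hsa-miR-302c-3p: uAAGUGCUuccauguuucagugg
hsa-miR-302d-3p: uAAGUGCUuccauguuugagugu
hsa-miR-367-3p: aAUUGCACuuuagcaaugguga

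Counts on the hairpin genes and on their host transcript moved in opposite directions. MIR302D, at chr4:113569160-113569227 on the minus strand of GRCh37, had 128 and 126 counts in Ctrl and 290 and 215 counts in ETV4 KD (log2FC 1.00 ± 0.20, adjP = 0.0117). MIR367, at chr4:113569030-113569097, had 107 and 128 counts against 260 and 218 counts (log2FC 1.03 ± 0.21, adjP = 0.0118), and its call was lost without Ctrl replicate 1. MIR302A rose in the same range (log2FC 1.02, adjP = 0.0157, lost without Ctrl replicate 1), as did MIR302C (0.92, adjP = 0.0198, lost without Ctrl replicate 2), and MIR302B was not called (0.83, adjP = 0.115). The host gene MIR302CHG, which spans them at chr4:113567632-113571207, went from 689 and 800 FPKM to 471 and 519 FPKM (log2FC -0.58 ± 0.10, adjP = 0.00591), and its change was under the fold of a DEG without Ctrl replicate 2 (-0.47) or ETV4 KD replicate 1 (-0.49). A poly-A library holds fragments far longer than a mature microRNA, so these counts say nothing of the mature levels. Whether their reads came from hairpin precursors, the host transcript or LARP7 was not tested, and the strand setting of the counting is not given. The cluster lies antisense within LARP7, which was not called (log2FC 0.20, adjP = 0.098). Of all 47 microRNA genes tested, 5 were upregulated, MIR302A, MIR302C, MIR302D and MIR367 of this cluster among them, and 0 downregulated. This share of 10.6%, all of it upregulated, stood against 5.88% of all genes upregulated and 13.0% called in either direction. Hairpins of the cluster lie within 1 host gene, so they are not separate members. Of 276 long intergenic genes (LINC), 40 were downregulated and 16 upregulated (20.3%).

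The promoters were read for letters that ETS factors and ATF4 are known to bind. For 98.1% of the protein-coding genes tested, the window from 250 bases before to 50 bases into the annotated canonical transcript was taken from GRCh37. On either strand, AGGAAG, the looser ETS core, was in 31.9% of the windows of downregulated genes, 29.7% of upregulated genes and 31.1% of all. CCGGAAGT, the longer ETS motif, was in 1.74% of the windows of downregulated genes (19 of 1091), in 8.86% of upregulated genes (80 of 903) and in 7.71% of all. The share also moved with level: among genes that were not DEGs it was 1.85% under 1 FPKM, 7.94% from 1 to 10 FPKM and 11.7% from 10 FPKM. Within these bands the downregulated genes had 0 of 312, 1.66% and 5.06%, and the upregulated genes 3.87%, 10.4% and 9.49%. Windows of ZNF genes held CCGGAAGT in 17.9%. TGATGNAA, the letters that ATF4 binds with a C/EBP partner, was chosen after values were seen. It was in 1.54% of all windows, in 3.54% of upregulated genes and in 0.825% of downregulated genes. Among the 25 ATF4 targets it was in 5, and among the 17 upregulated targets in 3. These are counts of letters in a window and not binding sites.

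Short stretches of 30 bases around a match are printed from GRCh37 for 6 genes whose changes are given above, with the matching letters, on the printed or the opposite strand, in capitals. ASNS and CHAC1 carry TGATGNAA, DDIT3, ZNF222 and ZNF239 carry CCGGAAGT, and DUSP6 carries AGGAAG. Each stretch is written in the direction of its gene and ends before the transcript starts. ASNS is at chr7:97501770-97501799 (minus strand), CHAC1 at chr15:41245449-41245478 (plus), DDIT3 at chr12:57914478-57914507 (minus), ZNF222 at chr19:44529461-44529490 (plus), ZNF239 at chr10:44070086-44070115 (minus) and DUSP6 at chr12:89746471-89746500 (minus).
ASNS: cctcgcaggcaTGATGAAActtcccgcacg
CHAC1: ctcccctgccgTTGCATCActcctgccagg
DDIT3: gacccaaagccACTTCCGGgtccgacacta
ZNF222: gaggctcgagcACTTCCGGtccccaactgt
ZNF239: aggggcccgcgCCGGAAGTgggcgtggttc
DUSP6: cccttctttctcCTTCCTcccgccgagccc

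The share of DEGs varied with level and little with chromosome. It was 10.7% below 0.5 FPKM, 17.7% from 0.5 to 1 FPKM, 16.7% from 1 to 10 FPKM, 8.51% from 10 to 100 FPKM and 7.08% above 100 FPKM. Below 0.5 FPKM 230 genes were downregulated and 136 upregulated, whereas from 10 to 100 FPKM 177 were downregulated and 255 upregulated. By chromosome, between 10.7% (chromosome 14) and 15.7% (chromosome 4) of genes were DEGs. On chromosome 19, 88 were upregulated and 55 downregulated, with a median log2FC of 0.09.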

How the data were processed

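The submitters' processing notes list Trimmomatic, HISAT2 2.1.0, StringTie 2.1.3b and GRCh37 for these stranded poly-A reads. The authors deposited raw read counts for every gene beside FPKM, which they scaled by transcript length and mapped reads. Libraries were mapped to groups by the labels and the table's column names. The table's own fold changes and p-values, its 8 further per-sample columns and the table of the crowding experiment were not used. The strand setting of the counting is not given in the sources used here, so counts of overlapping genes are uncertain.

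The counts of 2 against 2 libraries went through filterByExpr and TMM scaling and then the robust quasi-likelihood test of edgeR 4.0.16 (R 4.3.3), and Benjamini-Hochberg adjustment ran over 17879 genes. DEGs had to pass 0.05 after adjustment and move by more than 0.5 on the log2 scale. To obtain the SE, the size of the log2 change was divided by the root of F. With 2 against 2, no permutation test of a single gene can reach 0.05, so p-values rest on dispersions shared across genes (biological coefficient of variation 9.93%). In a simulation of this comparison where 200 genes moved by 1 on the log2 scale, edgeR recovered 74.5% of these (7.45% of its calls were false) and DESeq2 73%. The data gave 2321 DEGs, with a median absolute log2FC of 0.76 for rises and 0.83 for falls. The simulated rates need not hold for them. The spread between replicates exceeded sampling noise, with chi-square values of 8.81 and 21.9 per degree of freedom.

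The part of the series, the gene lists and the tests were chosen with earlier results of these data known, so list counts are descriptions. Named are, of DEGs at 1 FPKM or more on average whose groups stay apart, the 10 that rose and the 10 that fell most, the anchor genes of each list, and up to 3 rises and 3 falls per list (2 per symbol family); not all are printed. Other genes were named after their values were seen. A few genes are not reported here. Positions and promoter windows are from GENCODE v44 lifted to GRCh37, where 17994 of 19551 symbols matched. Alternatives were the size factors of DESeq2 1.42.0, its Wald test, no filter, at least 10 counts in every library, a replicate block, limma 3.58.1 on log2(FPKM + 0.5), + 0.1 or + 1, an absolute log2 fold change over 1, glmTreat, and each library left out.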

Additional observations from a re-analysis of the deposited data

How the results depend on the processing

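Of the 2321 DEGs, 2312 were shared with DESeq2's size factors (2324 called), 2127 with the DESeq2 Wald test (2234 called), 2124 without a filter (2142 called) and 2209 with at least 10 counts in every library (2272 called). A minimum absolute log2 fold change over 1 left 761 DEGs (324 up, 437 down), glmTreat 380 (181 up, 199 down), and limma on log2(FPKM + 1) 1325 (624 up, 701 down), against 1672 with a pseudocount of 0.5 and 1826 with 0.1; each of the first 2 is stricter by construction, and the cause was not tested for limma. Leaving out 1 library gave 1587 to 3390 DEGs, 734 to 1515 of them up and 853 to 1875 down, where the lone library of a group is assumed to vary like the other group. The replicate block called 2901 genes (1255 up, 1646 down). Replicate numbers are shared between groups in the labels, but nothing says that they mark a batch, and deviations from group means correlated at 0.0856 for equal numbers over 2 pairs, so the numbers were not taken as pairs. Of 52 gene lists, 25 had a median log2 fold change above 0, against 22 to 27 with 1 library left out. Single medians were less stable: 15 to 25 of the 52 moved by at least their SD between replicates when 1 library was left out. With limma on log2(FPKM + 0.5) 16 moved, and in the other settings compared 0 to 9 did. Among the genes named by rule, no gene called in the main fit or in an alternative changed direction between them. Sign changes of genes called in neither were not counted. With 52155822 counts or more per library, counting error is small for most genes, and the spread between 2 replicates limits the precision.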

Other observations

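Solute carriers and cytokines were not described above. Of 254 solute carrier genes, 19 were upregulated and 13 downregulated (12.6%, near the 13.0% of all genes). Beside the ATF4-linked transporters, SLC25A16, a mitochondrial carrier, went from 2.15 and 2.41 FPKM to 3.98 and 4.38 FPKM (log2 fold change 1.07 ± 0.13, adjusted p = 0.00183), and SLC22A23, an orphan organic ion transporter, from 10.6 and 10.5 FPKM to 6.01 and 4.54 FPKM (log2 fold change -0.99 ± 0.11, adjusted p = 0.00157). Without ETV4 KD replicate 1, 32 solute carriers were upregulated and 22 downregulated. Of 33 chemokine, cytokine and receptor genes, 4 were downregulated and 3 upregulated (21.2%). CXCL12, the ligand of CXCR4, went from 16.9 and 18.1 FPKM to 12.4 and 9.77 FPKM, and CXCL14, an epithelial chemokine, from 1.06 and 1.5 FPKM to 3.36 and 4.83 FPKM. Without Ctrl replicate 1, 1 of these genes was downregulated.

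Several membrane and junction genes moved by themselves. S100A4, a calcium-binding protein, went from 17.4 and 20.0 FPKM to 9.36 and 9.87 FPKM. THY1, a surface marker of hESCs, went from 118 and 119 FPKM to 70.2 and 64.8 FPKM. KRT8 (log2 fold change -0.12, adjusted p = 0.269) and KRT18 (0.10, adjusted p = 0.357), the keratins of simple epithelia, were not called. Of the trophectoderm and amnion markers, 1 of 11 was upregulated and 1 downregulated (18.2%, against 13.0% of all genes). GABRP, a subunit of a GABA receptor, went from 4.36 and 3.67 FPKM to 2.06 and 1.12 FPKM, and GATA3 was at or below 0.153 FPKM in every library.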
